A study of Saccharomyces cerevisiae with 5 samples.

Results

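The 10 genes described here encode the main sugar carriers of the budding yeast plasma membrane and its pair of glucose sensors: HXT1, HXT2, HXT3, HXT4, HXT5, HXT6, HXT7, GAL2, SNF3 and RGT2. They were taken by symbol from the array annotation, without regard to their values, out of 5583 annotated genes. Each of 5 spotted arrays compared cDNA of RNA that was immunoprecipitated (IP) with the tagged protein zzYra1 against cDNA of total RNA. Yra1 is an RNA-binding adaptor that hands mRNA to the nuclear export receptor, and the comparison asks which transcripts are over- or under-represented among the RNA it holds. All samples are the same pairing of a zzYra1 IP with total RNA. Channel 1 held the IP RNA on arrays 1 and 3, and channel 2 held it on the other 3 arrays (2, 4 and 5). The labels name neither strain background nor growth medium nor carbon source. No precipitation without the tagged protein was among the samples analysed here.

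Hexose carriers of the HXT family let glucose and fructose cross the plasma membrane by facilitated diffusion, and yeast switches between carriers of low and high affinity as the sugar outside rises and falls. Snf3 and Rgt2 look like carriers but act as receptors: through the kinases Yck1 and Yck2 and the ubiquitin ligase subunit Grr1 they lead to the loss of Mth1 and Std1, which frees the HXT promoters from the repressor Rgt1. HXT1 and HXT3 encode low-affinity carriers used when glucose is plentiful. HXT2, HXT4, HXT6 and HXT7 encode carriers of higher affinity, HXT5 a carrier of slowly growing or starved cells, and GAL2 the galactose permease, which also carries glucose. HXT6 and HXT7 are neighbours in the R64 annotation and nearly identical in sequence, so a spot of either can hybridise with cDNA of both. HXT1 and HXT5 are neighbours as well.

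The ratio of each spot is expressed as log2 after subtracting the array median, and "above" and "below" refer to that median in the ratio as deposited. Whether the deposited ratio is IP over total RNA, total RNA over IP, or channel by channel is not given. Before centring, the median log10 ratio was negative on arrays 1 (-1.39), 3 (-0.853) and 5 (-0.141) and positive on arrays 2 (1.34) and 4 (0.302). Every mean of a gene over all its replicates is therefore given as deposited and again with the sign of the 3 channel 2 arrays turned. Means with a replicate left out, or from other changes of processing, are given as deposited only. Arrays 1 and 2 share a platform and a label set with exchanged channels, so they were counted together as replicate 1, and arrays 3, 4 and 5 were replicates 2, 3 and 4. Nothing in the labels tells whether cultures were separate, and p-values then reflect no more than the spread among these arrays, which may be technical. Across all genes the arrays had little in common, with correlations of at most 0.23 between any pair, and array 5 had the widest spread (SD of 2.30 over its spots, against 0.848 to 1.15 on the others).

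The 10 genes were covered unevenly. All 10 had a value on array 1, where 99.2% of annotated genes did, and array 3 held 9 of them (48.8% of annotated genes). Arrays 2 and 4 held 6 each (68.9% and 57.7%), and array 5 held 3 (31.0%). HXT3 and HXT6 were measured on all 5 arrays, HXT4 and HXT5 on arrays 1 to 4, HXT1 on arrays 1, 3 and 5, GAL2 and RGT2 on arrays 1, 3 and 4, HXT2 on arrays 1, 2 and 3, HXT7 on arrays 1 and 3, and SNF3 on arrays 1 and 2. The sensor genes had no value on array 5, nor did any carrier gene other than HXT1, HXT3 and HXT6. The reason for a missing value is not recorded.

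**Figure D1:**
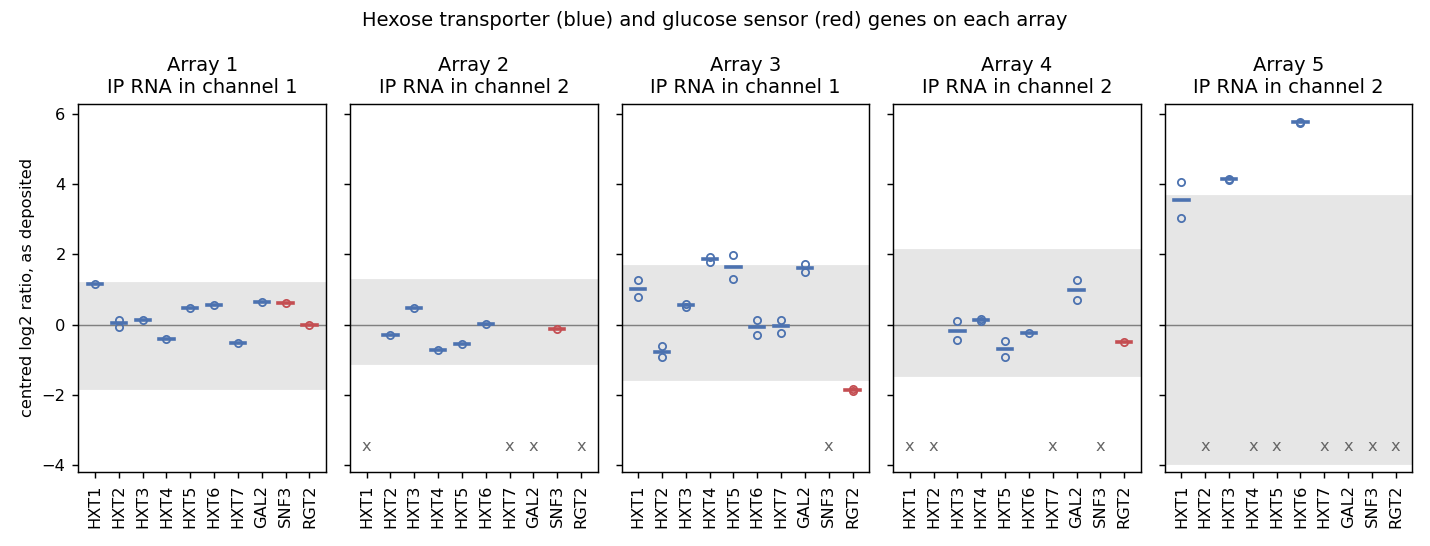
Centred log2 ratio of each hexose gene on arrays 1 to 5. Open circles are single spots, bars are means of a gene's spots, a cross marks a gene with no value, and the grey band runs from the 5th to the 95th percentile of genes (on array 5 its lower end lies just inside the axis). HXT3 and HXT6 rise above the band on array 5, HXT4 lies above it and RGT2 below it on array 3.

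Spots of the same gene agreed closely on the second platform. There each hexose gene had 2 consecutive spots, and over all genes with both measured the pair correlated at 0.79 over 1542 genes (array 3), 0.857 over 2365 genes (array 4) and 0.923 over 1429 genes (array 5). The median difference between both spots was 0.44, 0.34 and 0.41. Of the hexose genes with both spots measured, 6 of 9 differed by less than that median on array 3, 1 of 4 on array 4 and 2 of 3 on array 5. On array 3 their differences ran from 0.08 (RGT2) to 0.69 (HXT5), on array 4 from 0.04 (HXT4) to 0.56 (GAL2), and on array 5 from 0.04 (HXT3) to 1.05 (HXT1). On the first platform every hexose gene had a single spot except HXT2, whose spots on array 1 differed by 0.19. Genes with 2 measured spots on that platform correlated at only 0.12 over 1098 genes (array 1) and 0.309 over 430 genes (array 2). A single value from arrays 1 and 2 may thus carry a larger error. The platforms are not compared on like terms, however. Spots of a gene on the first can lie apart (4212 and 5967 for HXT2), and consecutive spots can share effects of position.

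**Figure D2:**
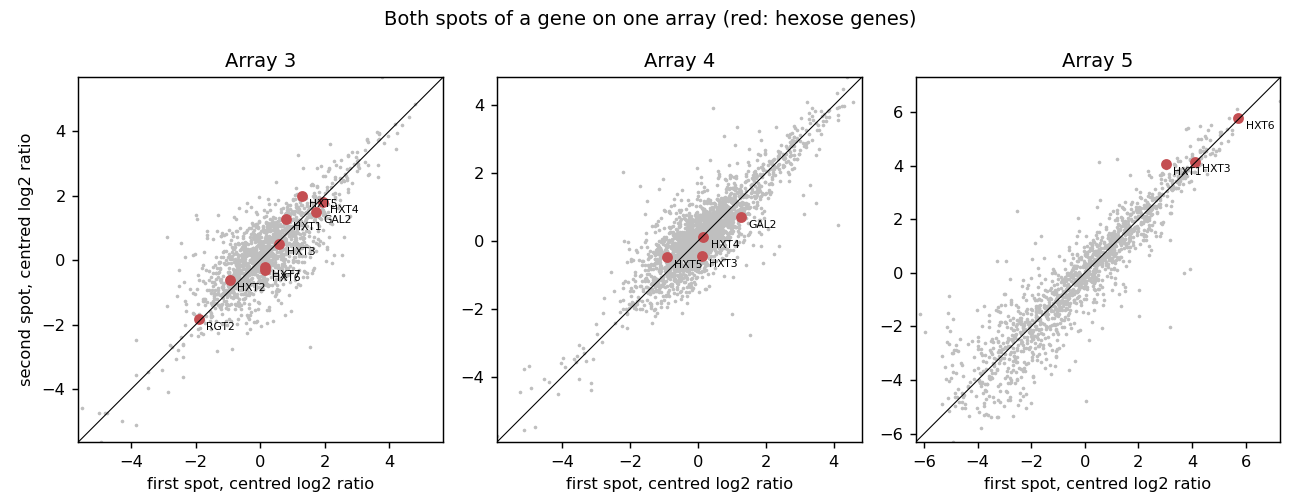
First against second spot of each gene on arrays 3, 4 and 5, both as centred log2 ratios. Grey points are all genes with 2 measured spots, red points are hexose genes, and the line marks equality. Hexose genes fall along the line, and the 1.05 between the HXT1 spots on array 5 is the widest gap among them.

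As deposited, the low-affinity carrier genes HXT1 and HXT3 lay mostly above the median. HXT1 was at 1.15 on array 1, 1.03 on array 3 (spots at 0.79 and 1.26) and 3.55 on array 5 (spots at 3.03 and 4.08). It was thus above the median on each of its 3 arrays, at percentiles 94, 87.6 and 93.9 of genes, and 14.7% of the 1017 genes measured on these arrays were likewise above on each. With the channel 2 arrays turned, array 5 is at -3.55 (percentile 6.0), so HXT1 then lies on both sides. HXT3 was at 0.13, 0.48, 0.55 and -0.17 on arrays 1 to 4 in that order, and at 4.14 on array 5. Array 5 stood far from the rest for HXT3, at 17.6 times the median spot and percentile 96.7, with spots at 4.12 and 4.16. Turned, its array 2, 4 and 5 values are -0.48, 0.17 and -4.14. On the other 4 arrays HXT3, as deposited, stayed between percentiles 43.6 and 76.1.

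HXT6, a high-affinity carrier gene, gave the most extreme value of the group, again on array 5. Arrays 1 and 2 gave 0.56 and 0.03, array 3 gave -0.08 (spots at -0.30 and 0.14), array 4 gave -0.24 (1 spot) and array 5 gave 5.76 (spots at 5.74 and 5.79). On array 5 that is 54.3 times the median spot and rank 5 of 1717 genes, while arrays 2, 3 and 4 placed it between percentiles 39.7 and 51.5. Turned, its array 5 value is -5.76, at percentile 0.233. HXT7, its near-copy, was at -0.52 on array 1 and -0.04 on array 3, and had no value on array 5. On array 3 both genes had nearly equal ratios, with HXT6 minus HXT7 at -0.03 and overlapping spots. On array 1 HXT6 was higher by 1.08, from a single spot of each. Over all genes with 2 spots on that array, the spots of a gene differed by a median of 0.71. The 90th percentile of that difference was 1.86. The mean difference was 0.52 ± 0.79 (SD, n = 2), with a two-sided exact sign-flip permutation p of 1.0, where the smallest p this design allows is 0.5. Without replicate 1 the difference is the -0.03 of array 3. Since both spots can catch cDNA of either gene, their ratios are not independent measurements of separate transcripts.

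Array 5 also showed a strong relation between ratio and spot brightness, and the hexose spots whose brightness could be recovered were bright there. The channel levels of a spot could be recovered up to a common factor for 88.2% of the values of array 5. Recovery needed a product of both terms under 100000000, which can leave out the brightest spots. Percentiles of brightness are therefore among recovered spots only. Over these 3284 spots, ratio and brightness had a Spearman correlation of 0.60, and the median ratio was -1.64 under the 10th percentile of brightness and 2.30 over the 90th. The HXT1 spots lay at percentiles 96.2 and 95.2 of brightness, and the recovered HXT3 spot at percentile 80.9. Among the 200 spots nearest in brightness, the HXT1 ratios were at percentiles 68 and 90.5 and the HXT3 ratio at percentile 97.5. The channel levels of both HXT6 spots were not recovered. With the running median of the ratio over 200 spots of like brightness subtracted, a correction chosen after seeing the data, the HXT1 spots went from 3.03 and 4.08 to 0.72 and 1.76, and the HXT3 spot from 4.12 to 3.18. For HXT6 on array 5 the part of brightness was not tested. On array 1 the ratio fell with brightness (Spearman correlation -0.47, 5978 recovered spots). The correlation was 0.13, 0.23 and 0.17 on arrays 2, 3 and 4. After the same correction, array 1 values were 0.06 for HXT5, -0.06 for SNF3, 0.16 for HXT6, 0.08 for HXT4 and -0.37 for HXT7. They were 0.66 for GAL2, 0.15 for HXT3, 0.00021 for RGT2 and -0.21 for the recovered HXT2 spot.

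**Figure D3:**
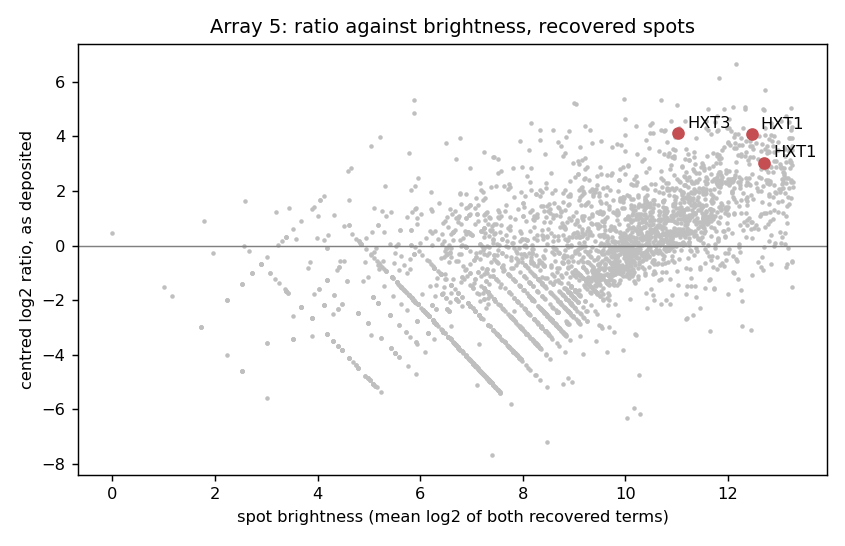
Centred log2 ratio against spot brightness on array 5 (brightness is the mean log2 of both recovered terms of the ratio, in arbitrary units). Grey points are the 3284 recovered spots, and red points are the HXT1 and HXT3 spots among them. Ratios climb with brightness, and the HXT3 spot at 4.12 lies higher than most spots as bright as itself.

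As deposited, the carrier genes HXT2, HXT4 and HXT5 changed side between arrays. HXT4 was at -0.40 on array 1, at -0.73 on array 2, at 1.86 on array 3 (spots at 1.79 and 1.93) and at 0.14 on array 4. Its array 3 value was at the 96th percentile, the highest of the 9 hexose genes measured there, whereas on array 2 it was the lowest of 6. Turned, it is the highest of 6 on array 2, at 0.73, and at -0.14 on array 4. HXT5 was at 0.47 on array 1, -0.55 on array 2, 1.64 on array 3 (spots at 1.30 and 1.98) and -0.69 on array 4 (spots at -0.91 and -0.47). Both arrays with IP RNA in channel 1 placed HXT5 above the median, and both channel 2 arrays that measured it placed it below, a pattern shared by 5.35% of the 1178 genes measured on arrays 1 to 4. Turned, HXT5 is above the median on all 4 (0.47, 0.55, 1.64 and 0.69), a pattern that the same genes share. HXT2 was at 0.03 on array 1, -0.29 on array 2 and -0.77 on array 3 (spots at -0.93 and -0.61). It was at percentiles 52.1, 31.5 and 19.4 of these arrays, and array 2 turned is at 0.29.

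GAL2, the galactose permease gene, and RGT2, the gene of the high-glucose sensor, each kept to one side in the ratio as deposited, and neither did with the channel 2 arrays turned. GAL2 was at 0.64 on array 1, 1.62 on array 3 (spots at 1.49 and 1.74) and 0.99 on array 4 (spots at 0.71 and 1.27), at percentiles 80.4, 94.5 and 85.7. Of the 1725 genes measured on these 3 arrays, 12.5% were above the median on each. Turned, array 4 is at -0.99 (percentile 14.2). RGT2 was at -0.02 on array 1, -1.86 on array 3 (spots at -1.90 and -1.82) and -0.50 on array 4 (1 spot). It was below the median on all 3, as 12.6% of the same genes were, but on array 1 by almost nothing (percentile 49.3), and on array 3 it lay at percentile 3.14. Turned, array 4 is at 0.50 (percentile 71.6). SNF3, the gene of the low-glucose sensor, was at 0.61 on array 1 and -0.12 on array 2 and its spots had no value on the second platform. The sensor genes had values together on array 1 alone, where SNF3 was at percentile 79.4 and RGT2 at percentile 49.3.

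**Figure D4:**
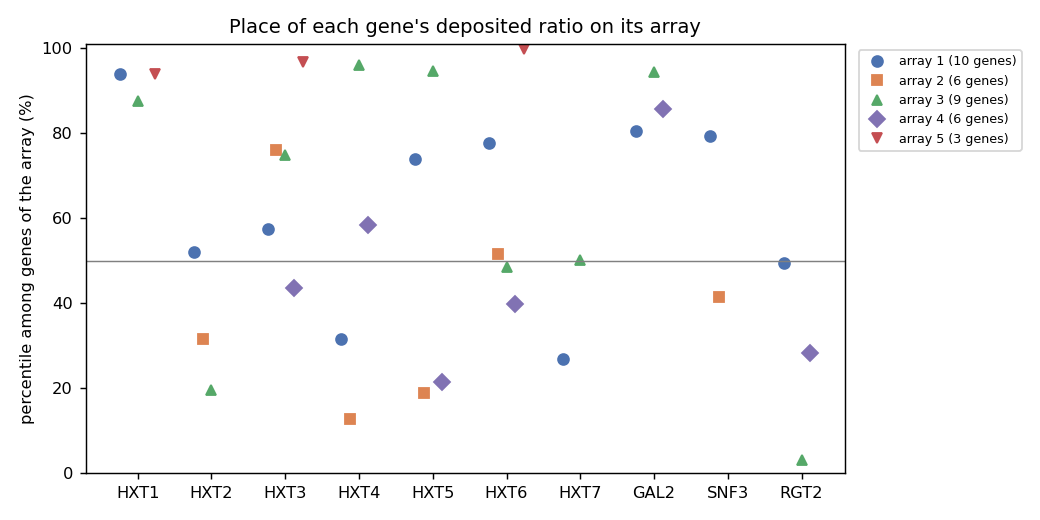
Percentile of each hexose gene's deposited ratio among all genes with a value on the same array, a symbol per array. As deposited, GAL2 and HXT1 stay above the 80th percentile wherever they were measured and RGT2 under the 50th, while turned, GAL2 on array 4 falls to 14.2, HXT1 on array 5 to 6.0 and RGT2 on array 4 rises to 71.6. As deposited, HXT4 and HXT5 span from under the 22nd to above the 94th.

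Array 3, with 9 of the genes measured at 2 spots each, gave the fullest order. From the top it ran HXT4 (1.86), HXT5 (1.64), GAL2 (1.62), HXT1 (1.03), HXT3 (0.55), HXT7 (-0.04), HXT6 (-0.08), HXT2 (-0.77) and RGT2 (-1.86). The ranges of the spots overlapped between HXT4 and HXT5, between HXT5 and GAL2, and between HXT7 and HXT6, so these neighbours could not be ordered. At the other 5 steps the ranges did not overlap, and the widest gap was the 1.09 between HXT2 and RGT2. These spots share 1 hybridisation, and their agreement says nothing of a repeat of the experiment. On array 5 the order was HXT6, HXT3, HXT1, with no overlap between neighbours, and on array 4 GAL2 came first, 0.85 over HXT4.

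As a group the hexose genes did not keep to one side, whichever way the channel 2 arrays are read. On array 1, 7 of 10 were above the median, where 49.4% of all genes were. On array 3 it was 5 of 9 (47.6% of all genes), and on array 5 it was 3 of 3 (48.2%). On arrays 2 and 4 it was 2 of 6 each, against 50.2% and 48.7%. In array order, the median of the measured hexose genes was 0.30, -0.21, 0.55, -0.21 and 4.14, while the median of all genes lay between -0.10 and 0.00260 on the 5 arrays. Turned, 4 of 6 were above on array 2, 4 of 6 on array 4 and 0 of 3 on array 5, with medians of 0.21, 0.21 and -4.14, against 49.8%, 51.3% and 51.8% of all genes.

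No hexose gene passed the test against 0. Of the 703 genes measured in all 4 replicates, limma with Benjamini-Hochberg adjustment called 0% at an adjusted p of 0.05, and 7.82% had an unadjusted p under 0.05. Only HXT3 and HXT6 of the 10 were among those 703. HXT3 had a mean of 1.20 ± 1.98 (SD, n = 4; limma, 95% interval -0.51 to 2.92, adjusted p = 0.628), and HXT6 1.43 ± 2.89 (SD, n = 4; limma, 95% interval -0.75 to 3.62, adjusted p = 0.64). Both means rest on replicate 4, without which they were 0.23 and -0.0081. With arrays scaled to one spread they were 0.74 and 0.70, and with a trend along spot position removed 0.97 and 1.21. With the channel 2 arrays turned they were -0.90 and -1.33, and 2.42% of the 703 genes had an unadjusted p under 0.05.

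Among the 4483 genes measured in at least 2 replicates, 9 of the 10 could be tested, SNF3 being left out with 1 replicate. Limma again called none of them and 0% of all genes. HXT1 and GAL2 had an unadjusted p under 0.05, as 3.79% of all genes did. HXT1 averaged 1.91 ± 1.42 (SD, n = 3; limma, adjusted p = 0.905), and without replicate 4 it was 1.09. With a trend along spot position removed from each array, the HXT1 mean was 0.945. GAL2 averaged 1.08 ± 0.50 (SD, n = 3; limma, adjusted p = 0.905), its replicates being the closest together among genes of this group with 3. RGT2 averaged -0.80 ± 0.95, HXT4 0.48 ± 1.25 and HXT5 0.30 ± 1.20 (SD, n = 3 each), and HXT2 -0.45 ± 0.45 and HXT7 -0.28 ± 0.33 (SD, n = 2 each). Adjusted p for these 5 ran from 0.905 (RGT2) to 0.953 (HXT7) with limma. As deposited and without replicate 2, the mean was -0.21 for HXT4, -0.36 for HXT5, -0.26 for RGT2 and -0.13 for HXT2.

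With the channel 2 arrays turned, none passed either, and no hexose gene reached an unadjusted p under 0.05, where 2.32% of all genes did. HXT1 then averaged -0.46 and GAL2 0.42. HXT5 was the gene with the narrowest spread for its size in this direction, at 0.95 ± 0.61 (SD, n = 3; limma, 95% interval -0.16 to 2.05, adjusted p = 0.941). HXT4 was at 0.63, HXT2 at -0.30, RGT2 at -0.46 and HXT7, measured on channel 1 arrays alone, still at -0.28. The sign of the mean differed between both readings for HXT1, HXT3 and HXT6. For every gene, whether a sign stands for more or less RNA in the IP is unknown.

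**Figure D5:**
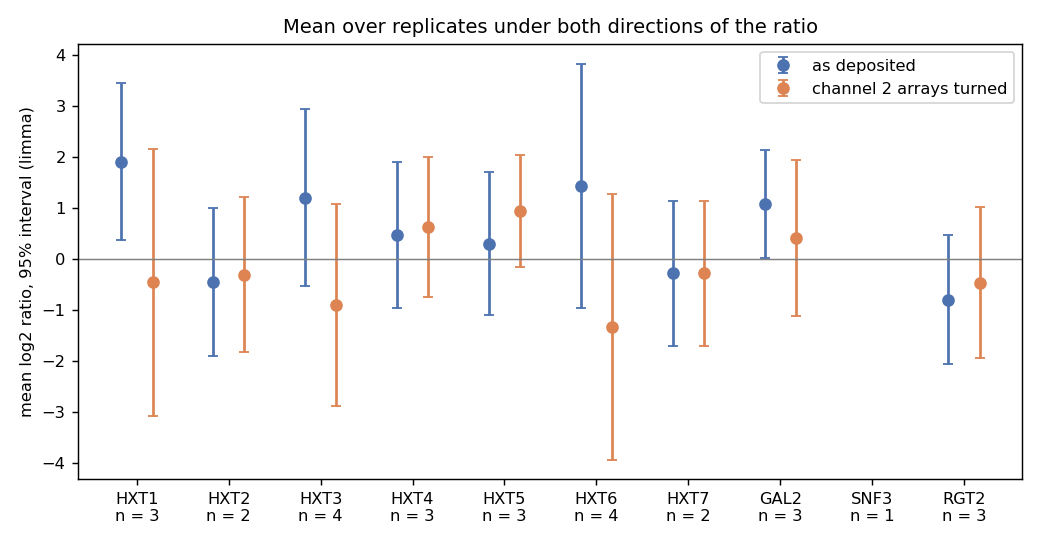
Mean log2 ratio of each hexose gene over its replicates with limma's 95% interval, as deposited (blue) and with the channel 2 arrays turned (orange), n being the number of replicates. As deposited, HXT1 and GAL2 have intervals just clear of 0 before adjustment over all genes, and turned none has. SNF3, with 1 replicate, has no interval.

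For HXT3 and HXT6, the genes measured on all 5 arrays, the genes nearest in pattern outside the family were those that were also high on array 5. Distance was taken over the 5 arrays after dividing each by its SD, among the 475 genes measured on all. The nearest to HXT3 were RPL37B, a ribosomal protein gene, at a distance of 0.79, EFB1, a translation elongation factor gene, at 0.85, and UBP9, a ubiquitin protease gene, at 0.93, against a median of 3.15. The nearest to HXT6 were RAD33 at 0.99, EFB1 at 1.17 and RPL37B at 1.27, against a median of 3.68. Each of these genes was high on array 5 (RAD33 at 4.53, RPL37B at 3.69, EFB1 at 3.26 and UBP9 at 2.54) and between -0.77 and 0.75 on arrays 1 to 4. That follows from the measure, since array 5 was part of the distance and HXT3 and HXT6 stood far out there.

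Other genes of sugar uptake and sensing did not pass the test either. Among genes measured in at least 2 replicates, limma called 0 of 7 other HXT genes, 0 of 7 genes of the induction pathway that controls HXT promoters, 0 of 13 glucose repression genes, 0 of 2 hexose kinase genes, 0 of 7 galactose genes and 0 of 4 other sugar carrier genes, and none had an unadjusted p under 0.05. The median of the mean ratios was -0.15 for the other HXT genes, -0.17 for the induction pathway, -0.27 for glucose repression, 0.54 for hexose kinases, 0.34 for galactose genes and -0.15 for other carriers, beside -0.08 for all 4483 genes and 0.48 for the 9 hexose genes. Turned, these medians were 0.68, -0.30, -0.07, -0.36, 0.20 and -0.19, with -0.01 for all genes and -0.30 for the hexose genes. The medians of the other HXT genes and of the hexose genes thus had opposite signs in either direction, a difference that was not tested. Both directions use the same array values. As deposited, the medians of both lists on single arrays had the same sign on array 1 (0.37 and 0.30), array 2 (-0.11 and -0.21) and array 4 (-0.49 and -0.21). They differed in sign on array 3 (-0.18 and 0.55) and array 5 (-0.98 from 4 genes and 4.14 from 3). No hexose kinase gene had a value in 3 replicates. The lists overlap: MTH1 is in both the induction and the galactose list, and HXK2 in both the kinase and the repression list. The list of other sugar carriers also holds FPS1, a glycerol channel gene.

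Genes named from these lists are the highest and lowest among members with 4 replicates (3 for the galactose genes and other carriers). Their SD over replicates ran from 0.31 to 1.63, below that of HXT3 and HXT6. The lowest, 0.31 for GAL7 and 0.40 for GAL3, are of genes without a value on array 5, the array with the widest spread. CYC8, which encodes a corepressor that acts at HXT promoters, was at 0.09, 0.18, -0.39, 1.79 and 3.19 on arrays 1 to 5, a mean of 1.18 ± 1.63 (SD, n = 4; limma, adjusted p = 0.622). Its partner TUP1 had -0.33 ± 1.32 (SD, n = 4), the lowest of 3 such genes of the induction list. Of 4 such genes in the glucose repression list SNF1, the kinase gene, was highest at 0.11 ± 0.88 and SIP1, a gene of its beta subunits, lowest at -1.09 ± 1.29 (SD, n = 4 each). HXT14 and HXT13, the 2 genes of the wider HXT family with 4 replicates, had -0.09 ± 0.74 and -0.24 ± 0.98 (SD, n = 4 each).

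GAL7, a galactose enzyme gene, was at 1.08 on array 1, 0.46 on array 3 and 0.74 on array 4, above the median on the same arrays as GAL2. Its mean was 0.76 ± 0.31 (SD, n = 3), the highest of 4 galactose genes with 3 replicates, with GAL3, the galactose sensor gene, lowest at -0.04 ± 0.40. FPS1, the glycerol channel gene, was lowest of 4 other carriers at -1.48 ± 1.52 (SD, n = 3), with -3.22 on array 3, and MPH3, a maltose carrier gene, highest at 0.31 ± 0.71 (SD, n = 4). None of the genes named from these lists passed the test (limma, adjusted p from 0.905 to 0.99 among genes in at least 2 replicates). With the channel 2 arrays turned, the means became -1.35 for CYC8, -0.30 for TUP1, -0.18 for SNF1, 0.50 for SIP1, -0.59 for HXT14 and 0.68 for HXT13. They became 0.27 for GAL7, 0.29 for GAL3, -0.94 for FPS1 and -0.31 for MPH3.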

How the data were processed

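Values came from the authors' deposited tables, which give per spot a log10 ratio of both channels. The tables cover 2 platforms, with 7680 spots (arrays 1 and 2) and 12800 spots (arrays 3 to 5), of which 11 and 20 belong to the hexose genes. Neither the labels nor the file headers state a scanner, background correction or normalization, the medians show that channels were not balanced, and the direction of the ratio stays unknown. The base was settled from the values: as fractions of whole channel levels (terms up to 65535, product under 100000000), base 10 recovered 36.7% to 93.9% of the values per array, against 11.4% to 12.95% of 2000 jittered ones. These fractions, in lowest terms, give brightness only approximately. Intensities behind the other values are unknown, and the number of arrays limits precision.

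Values were converted to log2 and centred on the array median. GEO's old platform annotation gave the gene of each spot, with symbols updated through gene identifiers in RefSeq R64: 6695 and 11138 spots had 1 gene, 0 had several, and 985 and 1662 were unnamed here. Spots of a gene were averaged. Per platform, 2 spots split over 2 rows were merged. Arrays 1 and 2, a possible dye swap of the same extracts, were averaged as replicate 1. Among the 703 genes tested, 475 had both, 225 array 1 alone and 3 array 2 alone.

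Means were tested against 0 with limma 3.58.1 (lmFit, eBayes) in R 4.3.3 with statmod 1.5.0, adjusted by Benjamini-Hochberg over all genes, threshold 0.05, and the script was tested on simulated data. The genes in at least 2 replicates formed a further fit, and that set with channel 2 arrays turned or a replicate left out was added after seeing the data. Other alternatives changed the replicate unit, centring, scaling, spot summary, variance model and position trend (running median over 81 spots with a value). Genes named are the 10 hexose genes, the highest and lowest of each list by mean over replicates among members with 4 replicates (3 where fewer than 2 had 4), and the 3 nearest in pattern. The hexose genes and lists were chosen with earlier results of these data known. Other steps and plots used numpy 2.4.6, scipy 1.17.1, pandas 2.3.3 and matplotlib 3.10.9 under Python 3.11.15.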

Additional observations from a re-analysis of the deposited data

Results flagged for a closer look

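Of 13 named genes with 4 replicates, 4 had a replicate whose gap to its nearest neighbour exceeded the 95% critical value of Dixon's test, and in each it was replicate 4 (array 5). HXT3 was at 4.14 there, against -0.17 to 0.55 in the other replicates, and HXT6 at 5.76 against -0.24 to 0.29. EFB1 was at 3.26 against -0.04 to 0.20, and RAD33 at 4.53 against -0.62 to -0.14, both named because their pattern is near that of HXT3 or HXT6. By chance about 1 in 20 such groups stands apart if replicates have equal spread, which these arrays do not.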

How the results depend on the processing

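Limma called 0 genes and 0 hexose genes in each of the 21 alternatives. At an unadjusted p under 0.05 there were 55 of 703 genes as deposited, 17 with the channel 2 arrays turned and 19 with eBayes using trend and robust. With the channel 2 arrays turned, the mean was -0.46 for HXT1, -0.90 for HXT3 and -1.33 for HXT6, by the construction of that alternative. Without replicate 4, HXT6 was at -0.0081, and leaving out each replicate in turn gave a range of -0.0081 to 1.99 for HXT6 and 0.23 to 1.66 for HXT3. HXT6 minus HXT7 ranged from -0.034 (without replicate 1) to 1.08 (without replicate 2). SNF3 was at 0.61 from array 1 and -0.12 from array 2. Of 207 recomputed hexose gene means, 13 changed sign, and where tested the adjusted p from limma ran from 0.606 to 0.999. Many of the 207 could not move. Changes of gene filter or variance model, the median of at most 2 spots, and dropping a replicate without a value leave a mean as it was. Some alternatives also give the same mean as each other, so the count does not measure how stable the signs are. With the brightness trend removed among recovered spots, chosen after seeing the data, array 5 gave 1.24 for HXT1 (3.55 before). The recovered HXT3 spot gave 3.18 (4.12 before). Filters on dim spots and background correction were not run, and no fit was made on values corrected for brightness, which were recovered for part of the spots only. No paired analysis was possible because all arrays form 1 group.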

Other observations

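HXT5 was above the median on the arrays with IP RNA in channel 1 (0.47 and 1.64). It was below on the channel 2 arrays that measured it (-0.55 and -0.69). The same sides were taken by 63 of the 1178 genes measured on arrays 1 to 4, or 5.35%. The sides of HXT4 on these arrays were shared by 7.81%, so neither pattern is particular to its gene. With the brightness trend removed among recovered spots, HXT5 was at 0.06 on array 1 and -0.59 on array 2. Its array 4 spots were at -0.65 and -0.26. HXT5 thus kept its side on these arrays, but on array 1 only barely, at percentile 53.5 of spots of like brightness. The HXT5 spots of array 3 were not recovered, so the part of brightness was not tested there. HXT5 was singled out after its values were seen, and GAL2, above the median on arrays 1, 3 and 4, did not have this pattern.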
